A study of Mus musculus with 28 samples.

Results

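The calcium-calmodulin kinases, calcineurin and neurogranin were described in RNA from 28 single mouse brain cells. The members are 9 genes chosen by symbol: the CaMKII genes Camk2a, Camk2b, Camk2d and Camk2g, the kinase gene Camk4, the neurogranin gene Nrgn, the calcineurin catalytic genes Ppp3ca and Ppp3cb, and the calcineurin regulatory gene Ppp3r1. All 9 are among the 23453 genes of the exonic table and the 20422 genes of the intronic table. The sample labels describe 12 neurons and 8 astrocytes from primary cultures of C57/BL6 cortex, taken up by pipette, and 8 interneurons of C57/BL6/N mice taken from acute slices of prefrontal cortex through a patch-clamp pipette. The labels of the cultured cells also describe a perfused, fixed adult male brain, whereas the study's methods describe dispersed cultures from embryos. How many animals or cultures the cells came from is not given in the sources used here. Nothing in the labels ties a column of the tables to a sample, so the columns were grouped by their codes alone: 12 cells coded BRP528, BRP529 and BRP534 to BRP543 (called BRP-A here), 8 cells coded BRP564 and BRP566 to BRP572 (BRP-B), and 8 cells coded F (F cells). For that reason no test between the groups was made. Values are given per cell, or as the lowest, the median and the highest cell, and the spread between cells is shown in place of an error.

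A rise of calcium in a neuron loads calmodulin, which then binds and switches on kinases and a phosphatase with opposed actions. CaMKII is a ring-shaped holoenzyme built from the products of the Camk2 genes, and its alpha and beta forms are abundant at excitatory synapses, where they take part in long-term potentiation. Calcineurin removes phosphate groups; it needs a catalytic A subunit (Ppp3ca, Ppp3cb or Ppp3cc) and a calcium-binding B subunit (Ppp3r1), and it is known for long-term depression and for sending NFAT proteins to the nucleus. CaMKIV, from Camk4, is a nuclear kinase that acts on CREB once CaMKK has phosphorylated it. Neurogranin is a small postsynaptic protein that holds calmodulin when calcium is low.

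The summed level of the 6 general neuron markers separated BRP-A from BRP-B, at 4737 to 8469 counts per 1000000 exonic counts (CPM) against 299 to 801 CPM, and lay between 1608 and 16746 CPM in F cells. The 8 astrocyte markers summed to 1522 to 6174 CPM in BRP-B, where all 8 had a median above 1 CPM, to 191 to 2463 CPM in BRP-A and to 0 to 4352 CPM in F cells. Nearly all of the highest BRP-A and F sums came from the transporter gene Slc1a2, which alone reached 2459 CPM in BRP538 and 4350 CPM in F7. Unlike the other astrocyte markers, Slc1a2 had a higher median in BRP-A (804 CPM) than in BRP-B (192 CPM). The glutamatergic markers summed to a median of 537 CPM in BRP-A, 0.178 CPM in BRP-B and 0.597 CPM in F cells, and Neurod6 was at 0 in all BRP-B cells. The 6 GABAergic markers summed to 563.9 to 11673 CPM in F cells, 0.0572 to 2844 CPM in BRP-A and 0 to 42.6 CPM in BRP-B, and 3 of them had a median above 1 CPM in F cells. In F11 and F12 that sum came mostly from Slc32a1 (443 and 618 CPM) and Dlx1 (85.9 and 178 CPM), with 18.9 and 0.739 CPM of Gad1. Some cells held markers of more than 1 type. BRP528 had 1136 CPM of Gad1 and 798 CPM of Slc32a1 with no count of Slc17a6 or Slc17a7, and of the astrocyte genes it held 589 CPM of Aldoc, 396 CPM of S100b and 142 CPM of Aqp4. BRP529 held 418 CPM of Aqp4, 283 CPM of Slc1a3 and 271 CPM of Aldoc. BRP541 held 340 CPM of Gad2 but no count of Gad1, Slc32a1, Dlx1, Dlx5 or Lhx6. F24 and F1 held 556 and 205 CPM of Aldoc, and F2 held 183 CPM of Gja1, but these F cells had no count of Aqp4, Aldh1l1 or S100b. BRP566 held 133 CPM of the glutamatergic gene Slc17a6, and F16 carried a microglia marker sum of 2093 CPM, which came from Csf1r alone. The other microglia markers were low in all F cells: C1qa had no count, and C1qb and Cx3cr1 reached at most 0.542 and 4.73 CPM. The highest sums of the other lists were 610 CPM for oligodendrocytes and 303 CPM for oligodendrocyte precursors in BRP-A, and 55.7 CPM for fibroblasts and pericytes and 19.7 CPM for endothelium in BRP-B. Exonic totals ran from 12969692 to 19798892 counts in BRP-B, from 17483754 to 26770944 in BRP-A and from 838343 to 14831505 in F cells. Introns held 5.67% to 13.0% of the counts in BRP-B, 8.91% to 38.8% in BRP-A and 36.3% to 63.0% in F cells other than F1, which had 5.31%. Median levels of the 9 genes and the range comparisons were also computed with each cell thinned to the lowest exonic total. Marker sums, family shares, intronic shares and correlations were not. The part of intronic share and other cells' RNA in the results was not tested.

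Together the 9 genes took a median of 0.234% of exonic counts in BRP-A, 0.0642% in BRP-B and 0.0700% in F cells. Every BRP-A cell (0.145% to 0.340%) was above every BRP-B cell (0.0400% to 0.120%), while F cells ran from 0.00680% to 0.271% and overlapped both. All 9 genes had a count in 10 of the 12 BRP-A cells. In BRP-B the usual number was 8 of 9, because Nrgn was absent from 7 of 8 cells, and in F cells it ran from 4 to 9. The median level was highest in BRP-A for 8 of the 9 genes, the exception being Camk2g, whereas over the 12774 genes with a mean of at least 1 CPM it was highest in BRP-A for 37.1%. With DESeq2 size factors the median was highest in F cells for Camk2a (169 CPM, against 97.6 in BRP-A) and for Camk2g (61.6 CPM, against 38.6 in BRP-B). All 9 genes passed that filter.

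**Figure D1:**
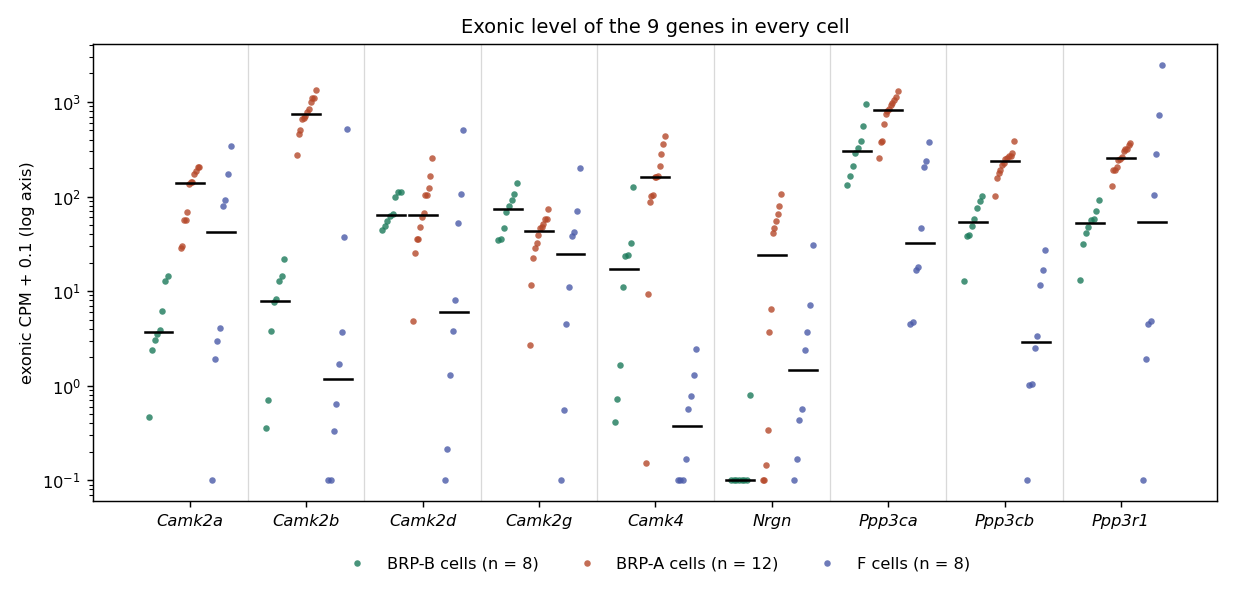
Exonic level of the 9 genes in each of 28 cells, as CPM plus 0.1 on a log axis; each point is 1 cell, colours are the BRP-B, BRP-A and F cells, and bars are medians. Points at the bottom are cells with no count, as in 7 of 8 BRP-B cells for Nrgn, and the BRP-A and BRP-B points for Camk2b, Camk2a and Ppp3r1 do not overlap; those of Camk2a did once cells were thinned to the lowest exonic total.

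Camk2b, the beta subunit gene of CaMKII, separated the 2 BRP groups by the widest gap in median. It lay between 278 and 1337 CPM in BRP-A, with a median of 742 CPM, and between 0.255 and 21.6 CPM in BRP-B, with a median of 7.83 CPM. The ratio of the medians was 94.8. The lowest BRP-A cell, BRP535, therefore held more than 10 times the level of the highest BRP-B cell, BRP572. In F cells the gene was all but confined to F6, at 523 CPM, with 37.2 CPM in F2, no more than 3.58 CPM in the other 6 cells, and no count in F12 and F24. A count of 0 allows up to 1.11 CPM in F12 and 1.42 CPM in F24, taking 3 counts as the limit and covering counting error only.

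Camk2a, the alpha subunit gene used as a mark of forebrain excitatory neurons, did not overlap between the 2 BRP groups either, except when cells were thinned to the lowest exonic total, where the ranges overlapped. Its lowest, median and highest levels were 28.3, 139 and 204 CPM in BRP-A and 0.364, 3.63 and 14.3 CPM in BRP-B. The 4 lowest BRP-A cells, at 28.3 to 56.2 CPM, were BRP543, BRP535, BRP529 and BRP528. F cells fell into 2 sets for this gene, with 345.5 CPM in F1, 175 CPM in F7, 92.0 CPM in F12 and 79.7 CPM in F11, and 0 to 3.99 CPM in F2, F6, F16 and F24. The cells of the higher set held GABAergic markers, with 5142.5 and 1092 CPM of Gad1 in F1 and F7 and 443 and 618 CPM of Slc32a1 in F11 and F12. The glutamatergic gene Slc17a7 was at most 4.92 CPM in F cells. Because the F median of 41.9 CPM falls in the gap between those sets, it dropped to 3.99 CPM without F1, and it was 104.5 CPM with TMM factors and 169 CPM with DESeq2 size factors. The count of 0 in F16 allows up to 3.58 CPM.

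Camk2g and Camk2d, the gamma and delta subunit genes that many tissues express, did not follow that order. Camk2g was at 34.4, 74.2 and 138 CPM (lowest, median and highest) in BRP-B and at 2.56, 42.6 and 73.3 CPM in BRP-A. Of the 12 BRP-A cells, 5 were below every BRP-B cell and 7 lay within the BRP-B range. Its median was lower in BRP-A than in BRP-B under each of the 5 scalings tried, by 0.79 on the log2(CPM + 1) scale with exonic totals and by 0.53 with DESeq2 size factors. On the same scale the median over all genes tested was shifted by -0.25 with exonic totals and by -0.02 with DESeq2 size factors. Camk2d had medians of 63.3 CPM in BRP-B and 63.8 CPM in BRP-A, but the BRP-A cells ran from 4.67 to 257 CPM against 44.3 to 113 CPM in BRP-B. The F cells were uneven for Camk2d, at 504 CPM in F1, 106 CPM in F2, 52.8 CPM in F6 and no more than 8.03 CPM in the other 5.

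Exon length differs between these genes, from 6.40 kb of merged annotated exon in Camk2g to 22.5 kb in Camk2d, so their levels were compared with each other only per kb of exon. On that scale Camk2b led in all 12 BRP-A cells, with a median of 75.5% of the family (63.2% to 90.1%), followed by Camk2a at 12.7%, Camk2g at 5.00% and Camk2d at 2.91%. In BRP-B Camk2g led in all 8 cells, with a median of 71.2% (57.8% to 75.4%), followed by Camk2d at 22.3%, Camk2b at 6.15% and Camk2a at 4.35%. The Camk2b shares of BRP-B, at most 9.48%, lay below all those of BRP-A. The lead of Camk2g in BRP-B rests on the length correction: in raw exonic counts Camk2d led in 6 of the 8 cells. With the longest transcript as the length Camk2g led in all 8, and the lead of Camk2b in BRP-A held in all 12 cells with either length and with none. The 6 F cells with at least 100 counts on the family had no common order. Camk2a led in F1, F7, F11 and F12, where it made up 61.5%, 99.9%, 96.3% and 94.7%, Camk2b made up 80.6% in F6, and Camk2g made up 77.6% in F2. With the longest transcript as length, or with none, Camk2a led in 3 of the 6 cells and Camk2d in 1, and F1 held 7471 raw counts of Camk2d against 5125 of Camk2a. Summed over the 4 genes, the family stood at a median of 114 CPM per kb in BRP-A (38.97 to 184) and 17.2 CPM per kb in BRP-B (8.73 to 28.5), again with no overlap.

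**Figure D2:**
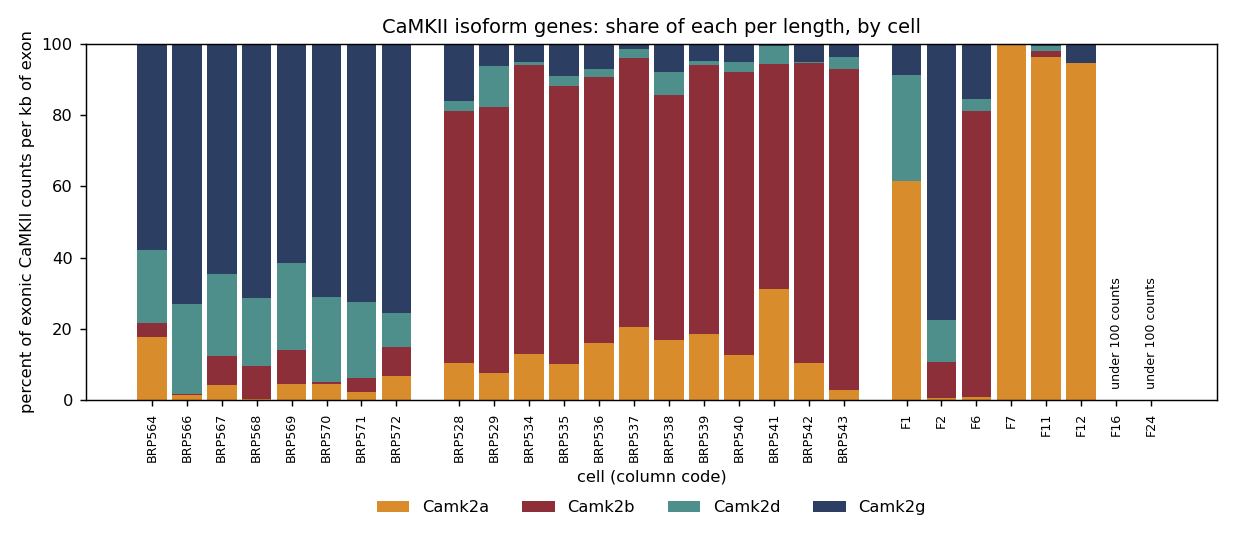
Share of each of the 4 CaMKII genes in the exonic CaMKII counts of each cell, in percent after division by kb of merged exon; each bar is 1 cell, and F16 and F24 had fewer than 100 counts and are left blank. Camk2b fills 63.2% to 90.1% of every BRP-A bar, Camk2g fills 57.8% to 75.4% of every BRP-B bar, and the F bars differ from cell to cell.

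Camk4 varied widely between cells of both BRP groups. In BRP-A it had a median of 161 CPM and reached 437 CPM in BRP542, but BRP541 held 9.33 CPM and BRP543 held 1 count in 19591437, or 0.0510 CPM. In BRP-B the median was 17.2 CPM, with 126 CPM in BRP567 and 0.310 to 1.57 CPM in BRP564, BRP569 and BRP570. Of these cells with little exonic Camk4, BRP543 held 391 and BRP570 held 923 intronic counts, against 64 in BRP541, 3 in BRP564 and 16 in BRP569. The ranges of the 2 groups overlapped, with 7 BRP-A cells above every BRP-B cell and 1 below all of them. No F cell exceeded 2.35 CPM and 3 had no count, so that the gene was near its detection limit there. The kinases that act on CaMKIV had the same order of medians: Camkk2 was at 350 CPM in BRP-A, 35.3 CPM in BRP-B and 1.43 CPM in F cells, and Camkk1 at 97.9, 4.11 and 0 CPM. Single BRP-A cells spread from 8.64 to 888 CPM for Camkk2 and from 1.20 to 216 CPM for Camkk1.

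Nrgn differed widely between single BRP-A cells. It was at 107 CPM in BRP538, 78.6 CPM in BRP535, 65.8 CPM in BRP528, 55.1 CPM in BRP529, 46.1 CPM in BRP541 and 41.0 CPM in BRP540. It was at 6.38 CPM in BRP539 and 3.57 CPM in BRP543, and at no more than 0.238 CPM in the remaining 4, of which BRP537 and BRP542 had no count and so allow up to 0.112 and 0.146 CPM. The BRP-A median was 23.7 CPM, and 4.98 CPM without BRP528 and BRP529. No BRP-B cell but BRP569 (9 counts, 0.694 CPM) had an exonic count of Nrgn, and F7 stood highest of the F cells at 30.6 CPM. Across the 12 BRP-A cells Spearman's rho of Nrgn was -0.45 with Camk2b, -0.22 with Camk2a and 0.33 with Ppp3ca, as a description of cells of 1 code group.

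Ppp3ca, the alpha catalytic subunit of calcineurin, was the one member with a count in all 28 cells. It lay at 253, 824 and 1302 CPM (lowest, median and highest) in BRP-A and at 133, 306 and 958 CPM in BRP-B. The ranges overlapped: 4 BRP-A cells were above every BRP-B cell and 8 lay inside the BRP-B range. Per kb of merged exon its median was the highest of the 9 genes in both BRP groups, at 82.6 CPM per kb in BRP-A, close to Camk2b at 81.4 and Ppp3r1 at 78.5, and at 30.6 CPM per kb in BRP-B. Other lengths were not tried for this order, and the close values in BRP-A could change places with them. F cells ran from 375 CPM in F24, 237 CPM in F1 and 207 CPM in F2 down to 4.43 CPM in F12.

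Ppp3cb, the beta catalytic subunit, was lower in F cells than in any BRP-A cell, at 0 to 26.8 CPM against 100.4 to 384 CPM, but the ranges overlapped with DESeq2 size factors. The BRP-B range of 12.6 to 100.5 CPM touched that of BRP-A at the edge, since BRP569 in BRP-B and BRP541 in BRP-A differed by less than 0.1 CPM. The other 11 BRP-A cells were above all BRP-B cells, and the medians were 238 and 53.1 CPM. An antisense gene, 1810062O18Rik, overlaps the start of Ppp3cb and has 3557 exonic counts over all cells against 68030 for Ppp3cb. The strand used in counting is not given in the sources used here, so reads of the 2 genes in the overlap cannot be told apart.

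Ppp3r1, the regulatory B subunit that the A subunits need, did not overlap between the 2 BRP groups, at 129, 253 and 368 CPM in BRP-A and 13.0, 51.9 and 92.6 CPM in BRP-B. F cells spanned the widest range of any member. F7 held 2473 CPM (21492 counts), F24 730.5 CPM, F1 283 CPM and F6 103 CPM, and the other 4 held 0 to 4.77 CPM. The F median of 53.9 CPM lies in the gap between those sets and was 4.77 CPM without F1 and 167 CPM with DESeq2 size factors. In F7, the cell with the highest Ppp3r1, the catalytic genes Ppp3ca and Ppp3cb stood at only 17.7 and 16.8 CPM. Wdr92 overlaps Ppp3r1 on the same strand and has 7999 exonic counts over all cells, against 101141 for Ppp3r1.

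With Ppp3cc, the third catalytic gene, added, Ppp3ca made up a median of 68.4% of the calcineurin A level per length in BRP-A (33.0% to 90.8%) and 69.7% in BRP-B (43.3% to 91.7%). The ranges of the 2 BRP groups thus overlapped in this share. Among the CaMKII shares, those of Camk2a and Camk2d overlapped as well, while those of Camk2b and Camk2g did not. Ppp3ca led in all 8 BRP-B cells and in 11 of 12 BRP-A cells; in BRP542 Ppp3cb led with 42.6%. The 5 F cells with at least 100 counts on these genes had no common order. Ppp3cc led in F24, with 4073 CPM and 97.3% of the calcineurin A level, and in F2 with 80.6%. Ppp3ca led in F1 with 97.7% and in F6 with 38.0% against 37.1% for Ppp3cc, and Ppp3cb led in F7 with 50.7%. The lead in F7 rests on the division by length: in raw exonic counts F7 held 154 of Ppp3ca against 146 of Ppp3cb. The summed CaMKII level per kb was divided by the summed calcineurin A level per kb in cells with at least 100 counts on each family. The median ratio was 0.956 in BRP-A (0.670 to 2.01, above 1 in 6 of 12 cells) and 0.321 in BRP-B (0.144 to 0.949, above 1 in 0 of 8 cells). The ratio and the numbers of cells above 1 hold for merged exon as length, and other lengths were not tried for it. Camk2d, for example, has 22.5 kb of merged exon but a longest transcript of 5524 bases. Only 4 F cells could be scored, at 0.356 in F2, 3.09 in F1, 5.82 in F6 and 6.23 in F7. The limit of 100 counts left out cells with extreme ratios in both directions. F24 held 9415 calcineurin A counts but fewer than 100 on CaMKII. F11 and F12 held 375 and 261 CaMKII counts but fewer than 100 on calcineurin A.

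The sequences just upstream of Ppp3cb and Ppp3r1 are shown because a catalytic and the regulatory subunit both had higher medians in BRP-A than in BRP-B, by 4.49 and 4.88 times. Both were taken from RefSeq promoter windows on GRCm38.p6, which held 5 of the 9 members, and cut to the bases before the first annotated exon. The cut left 0 bases for Camk2b and Camk2d and 91 for Nrgn, which hold none of the motifs searched. Capitals mark GC boxes (GGGCGG, or CCGCCC on the other strand) and CRE half-sites (TGACG, or CGTCA on the other strand). The Ppp3cb stretch is chr14:20546574-20546823 on the minus strand, and the Ppp3r1 stretch is chr11:17159048-17159262 on the plus strand.
Ppp3cb: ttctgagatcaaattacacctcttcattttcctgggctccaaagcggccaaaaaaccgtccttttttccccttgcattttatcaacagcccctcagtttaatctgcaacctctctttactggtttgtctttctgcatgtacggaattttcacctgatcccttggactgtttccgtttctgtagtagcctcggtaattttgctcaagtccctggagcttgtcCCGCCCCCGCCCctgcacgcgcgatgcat
Ppp3r1: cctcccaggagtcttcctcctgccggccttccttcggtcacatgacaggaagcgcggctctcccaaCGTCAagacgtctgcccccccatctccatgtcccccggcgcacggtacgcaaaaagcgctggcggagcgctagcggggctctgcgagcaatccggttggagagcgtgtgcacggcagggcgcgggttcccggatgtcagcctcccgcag

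The 250 bases before Ppp3cb hold 2 adjoining GC boxes and no CRE half-site, with 10 CpG dinucleotides and 48.4% G and C. The 215 bases before Ppp3r1 hold 1 CRE half-site and no GC box, with 22 CpG dinucleotides and 67.4% G and C. A GC box is found in 32.7% of all 32851 promoter windows over the same 250 bases, and a CRE half-site in 14.4% over the same 215 bases. Neither stretch holds a CCAAT box (CCAAT, or ATTGG on the other strand). Such letters are a description of the windows, and the tables hold no measure of binding.

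Read against all genes, 3 of the 9 members (Camk2a, Camk2b and Ppp3r1) had every BRP-A cell above every BRP-B cell, compared with 3.21% of the 12774 genes tested. The number was 3 of 9 without BRP528 and BRP529, where the share of all genes was 4.87%, and 2 of 9 (Camk2b and Ppp3r1) when each cell was thinned to the lowest exonic total, where the share was 2.77%. No member had every BRP-B cell above every BRP-A cell, a pattern found in 4.04% of all genes. Ppp3cb alone had every BRP-A cell above every F cell, that is 1 of 9 against 11% of all genes, and with DESeq2 size factors the number was 0 against 6.55%. Every BRP-B cell was above every F cell for 24.8% of all genes and for none of the 9, and every F cell was above every BRP-B cell for 0.0391% of all genes and for none of the 9. With exonic totals and all cells, no gene at all had every F cell above every BRP-A cell. That share of all genes was 0.0162% with DESeq2 size factors, 0.00785% without BRP528 and BRP529 and 0.00781% without F1, with none of the 9 among them.

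In F7 the intronic table held 86433 counts of Ppp3ca against 154 exonic counts, so that 99.8% of its counts were intronic (95% Wilson interval 99.79% to 99.85%). F16 held 24869 against 14 (99.94%, interval 99.91% to 99.97%) and F6 held 16610 against 558 (96.7%, interval 96.5% to 97.0%). In F1, F24 and F2 there were only 1, 11 and 62 intronic counts against 3520, 793 and 1145 exonic ones, and these were the 3 F cells with the most exonic CPM of the gene. F7 alone gave 67.4% of the F group's intronic Ppp3ca counts. The gene spans 268 kb, and per kb of intron and of exon the median intronic share in F cells was 28.4% in place of 91.0%. Intervals cover counting error only, since amplified reads are not independent molecules.

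Ppp3cb differed between the BRP groups in the same respect. Its intronic share was 56.4% to 90.1% in BRP-B, above the intronic share of the whole cell in 8 of 8 cells, and 0 to 31.9% in BRP-A, above that of the whole cell in 3 of 12. These ranges did not overlap. The BRP-B median was 66.3%, or 31.1% per kb of intron and of exon. Per 1000000 intronic counts of the cell, the intronic level was 763 to 1941 in BRP-B and 0 to 784 in BRP-A, touching at the edge as the exonic CPM did, with BRP-B the higher in introns and BRP-A in exons. In BRP535, the BRP-A cell without an intronic count, 3317 exonic counts were found. For Camk2b the intronic share was low in all 12 BRP-A cells, at 0.107% to 2.396%, and below that of the whole cell in each. For Camk2d the medians were 43.0% in BRP-A and 63.0% in BRP-B, but 8.21% and 14.4% per kb of intron and of exon, and 8 annotated genes lie inside or across its span. Nrgn had intronic counts almost only in BRP540, where 1092 intronic and 717 exonic counts gave a share of 60.4% (interval 58.1% to 62.6%) and made up 98.9% of the intronic Nrgn counts of BRP-A. BRP540 had the highest intronic share of its group, 38.8%, and also held 83.4% of the intronic Camk4 counts and 77.7% of the intronic Camk2g counts of BRP-A.

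**Figure D3:**
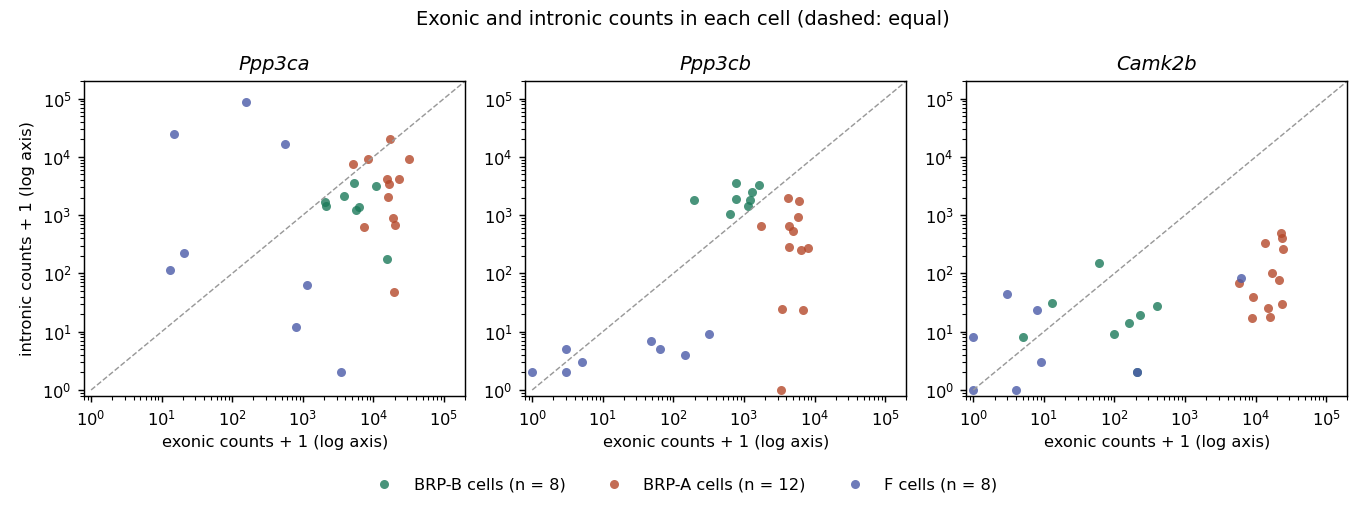
Exonic counts (x axis) and intronic counts (y axis) of Ppp3ca, Ppp3cb and Camk2b in each of 28 cells, both plus 1 on log axes; points above the dashed line have more intronic than exonic counts. For Ppp3cb all 8 BRP-B cells lie above the line and all 12 BRP-A cells below it, and for Ppp3ca the F cells F7, F16 and F6 lie far above it.

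Another 33 genes of the pathway were read in 7 lists. Calm2, a gene of calmodulin, the calcium sensor of the system, was at 4889 to 12029 CPM in BRP-A and 804 to 1437 CPM in BRP-B, without overlap. Calm3, also a calmodulin gene, at medians of 513 and 362 CPM, overlapped. In F cells Calm2 ranged from 1.27 CPM in F7 to 5187 CPM, with a median of 1583 CPM. Over the 33 genes the median level was highest in BRP-A for 23, or 69.7%, and in BRP-B for 9, or 27.3%, and the remaining gene was tied; over all genes tested these shares were 37.1% and 56.3%. Of the 30 pathway genes tested for overlap, 5 had every BRP-A cell above every BRP-B cell and 0 the reverse, beside the 3.21% and 4.04% of all genes given above.

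Of the 9 other calmodulin kinases, 7 had their highest median in BRP-A and 1 did not overlap between the BRP groups. That gene, Camkv, a kinase-like protein of dendritic spines, was at 75.6 to 351 CPM in BRP-A and had a count in 1 of 8 BRP-B cells, at 0.255 CPM. Camk1d was at 61.7 to 278 CPM in BRP-A and at no more than 1.45 CPM in F cells. Both CaMKII inhibitor genes had their highest median in BRP-A. Camk2n1, whose product binds active CaMKII, was at medians of 494 CPM in BRP-A, 14.5 CPM in BRP-B and 160 CPM in F cells, with 1644 CPM in the highest F cell. All 3 calmodulin-binding IQ proteins, which share that motif with neurogranin, were highest in BRP-A by median. Gap43 was at 710 to 2731 CPM in BRP-A against 15.3 to 270.1 CPM in BRP-B. Pcp4 had medians of 675 and 110 CPM in those groups, but with 1.61 CPM in the lowest BRP-A cell.

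Of the other calcineurin subunit genes, Ppp3cc had medians of 22.5 CPM in BRP-A, 15.04 CPM in BRP-B and 0.488 CPM in F cells. The median over all genes tested was 10.8, 17.2 and 0 CPM in those groups. Ppp3r2 had no count in BRP-A or F cells and at most 4.78 CPM in BRP-B. The calcineurin regulators went both ways, with 3 of 6 highest in BRP-A and 3 in BRP-B. The Rcan genes, whose products bind calcineurin, had their highest median in BRP-B. Rcan1 was at 53.2 CPM in BRP-B and 14.0 CPM in BRP-A, Rcan2 at 70.2 and 10.6 CPM, and Rcan3 at 70.7 and 0 CPM, and all 3 ranges overlapped between these groups. Akap5, an anchor that holds calcineurin at the postsynaptic membrane, was at a median of 135 CPM in BRP-A and 0.320 CPM in BRP-B but spread from 0.0498 to 433 CPM in BRP-A. Fkbp1a, which encodes the protein that carries tacrolimus to calcineurin, did not overlap, at 433 to 1241 CPM in BRP-A and 200 to 349.7 CPM in BRP-B. Among 9 downstream transcription factors, 5 had their highest median in BRP-A, 3 in BRP-B and 1 was tied. Mef2c was at 357 to 1871 CPM in BRP-A and at most 52.4 CPM in BRP-B. Nfatc3, a calcineurin substrate, had a median of 65.3 CPM in BRP-B, 3.59 CPM in BRP-A and 0 CPM in F cells, and Nfatc4 and Nfatc2 had medians under 0.1 CPM in all 3 groups.

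**Figure D4:**
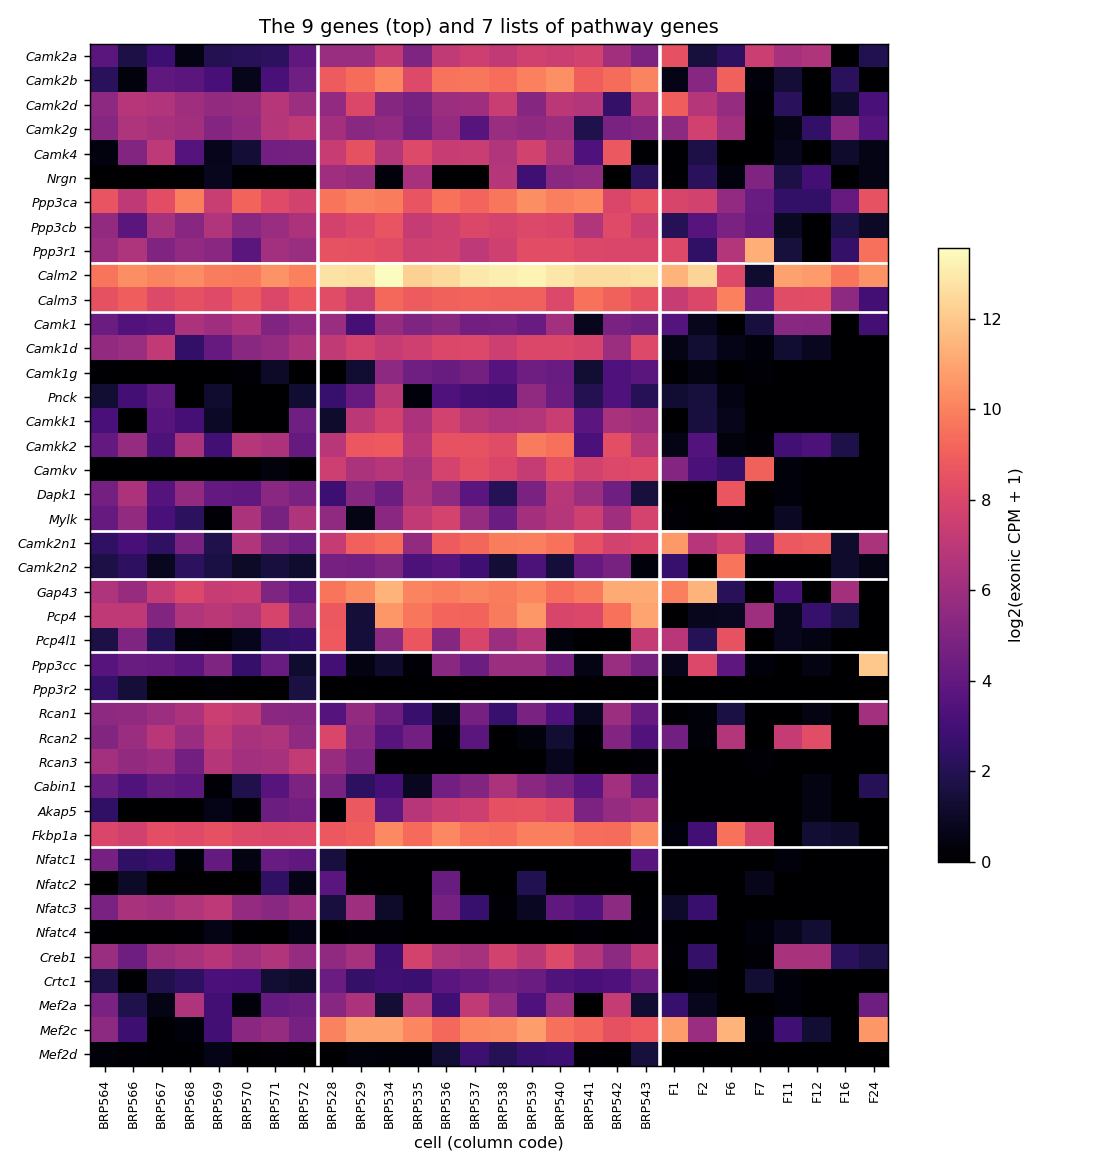
Level of the 9 genes (top block) and of 33 other pathway genes in 7 lists (white lines; calmodulin, other kinases, CaMKII inhibitors, IQ proteins, other calcineurin subunits, calcineurin regulators, transcription factors) in each of 28 cells, as log2(exonic CPM + 1). The columns are 8 BRP-B, 12 BRP-A and 8 F cells from left to right, and Calm2 is brighter in BRP-A than in BRP-B.

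Across all 28 cells the 36 pairs of members had a median Spearman's rho of 0.287, and 33 were above 0. The highest was that of Camk2b with Ppp3cb, 0.85, and the lowest that of Camk2a with Camk2g, -0.39. These cells come from 3 groups and differ in depth: rho with the exonic total was 0.87 for Ppp3cb and 0.72 for Camk2b. Within the 12 BRP-A cells the median over the 36 pairs was 0.161, with 23 above 0, and the rho of Camk2b with Ppp3cb was 0.40. The highest pair there was Camk2a with Ppp3ca, 0.61, and the lowest Camk2d with Camk4, -0.48. Within BRP-B the median was -0.048 and within F cells 0.103. The genes most alike to each member over 28 cells were sought among those with a mean of at least 1 CPM. For Ppp3cb they were B230217C12Rik (0.944), Strn4 (0.928) and Slc25a14 (0.912), for Camk2b Fkbp1a (0.908), Psd (0.906) and Camkk1 (0.898), and for Ppp3ca Ralgps2 (0.883), Fam115a (0.832) and Actr8 (0.825). For Ppp3r1 they were Nbea (0.881), Myt1l (0.838) and Agtpbp1 (0.836), for Camk4 Tmem229b (0.838), Camsap1 (0.823) and Baiap2 (0.815), and for Camk2a Adam11 (0.801), Gabbr1 (0.800) and Abca5 (0.789). The rho values were lower for Camk2d (Trim27, 0.772; 2810474O19Rik, 0.750; Serbp1, 0.736), Camk2g (Hypk, 0.760; Mbnl2, 0.737; 9930012K11Rik, 0.732) and Nrgn (Spock1, 0.698; Scn3a, 0.696; Grm5, 0.634).

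**Figure D5:**
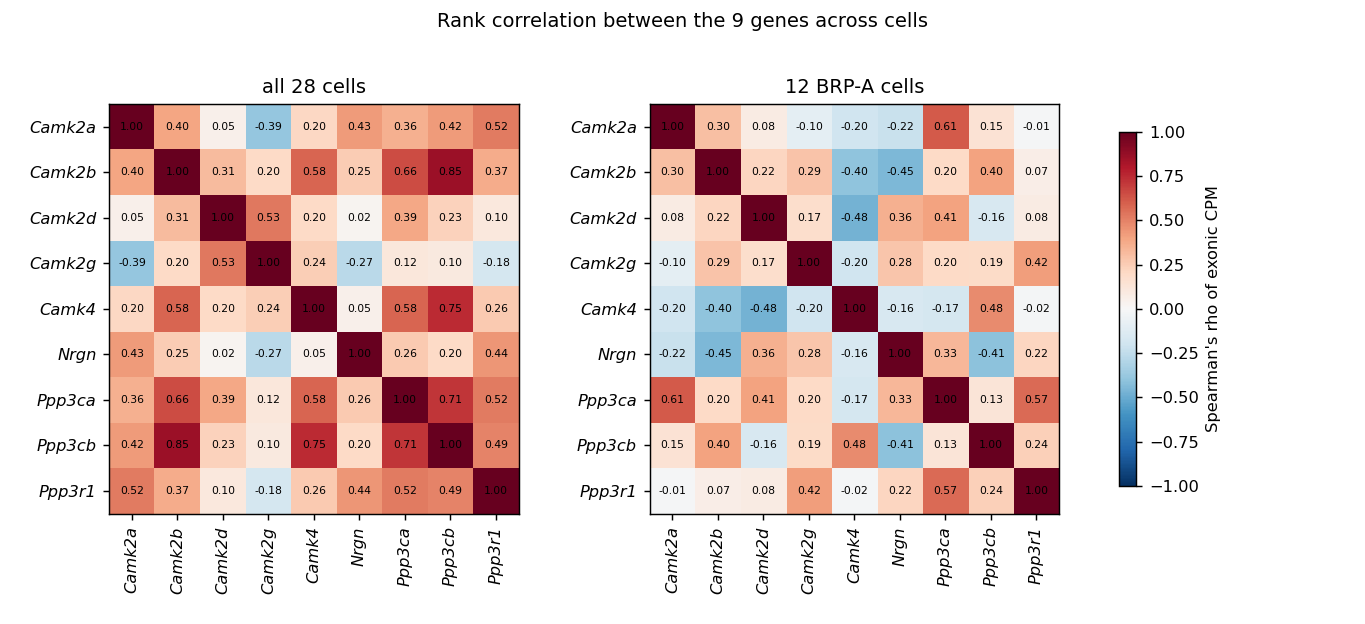
Spearman's rho of exonic CPM between the 9 genes, over all 28 cells (left) and over the 12 BRP-A cells (right); each square is 1 pair. The pair of Camk2b and Ppp3cb is at 0.85 on the left and 0.40 on the right.

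All 9 members are protein-coding genes in GENCODE M21 on GRCm38, the assembly also called mm10. Camk2b lies at chr11:5969644-6066362 and Camk2g at chr14:20734875-20794088, both on the minus strand, and Camk2d at chr3:126596302-126846326 on the plus strand. Nrgn lies at chr9:37544492-37552904 and Ppp3cb at chr14:20499364-20546573 on the minus strand, and Ppp3ca at chr3:136670124-136937727 and Ppp3r1 at chr11:17159263-17200375 on the plus strand. Exonic counts of Camk4 come from only 3.26 kb of exon in a gene of 256 kb, those of Nrgn from 1.45 kb in 8.41 kb.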

How the data were processed

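The authors deposited 2 tables of raw counts per gene and cell, 1 for exons and 1 for introns, with whole numbers and no normalization. Their processing notes name bcl2fastq 2.17, STAR 2.4.0 and the build mm10; the counting tool, annotation and strand are not given in the sources used here. Library kits and sequencers differed between cultured cells (TruSeq Nano DNA) and interneurons (TruSeq Stranded), so kit, sequencer and cell source cannot be told apart. The members and gene lists were chosen with earlier results of these data known. Exonic counts were divided by the cell's exonic total (838343 to 26770944 counts) and multiplied by 1000000 (CPM). Lengths are merged GENCODE M21 exons. Family shares used cells with at least 100 exonic counts on the family, and intronic shares cells with at least 100 counts on the gene. The named genes are the 9 members, 33 pathway genes in 7 lists and the 3 most alike genes of each member; 1 further list entry is not reported here. Range comparisons covered genes with a mean of at least 1 CPM, and their calculation was checked on simulated data with known answers. A count of 0 allows up to 3 counts. No 2 cells had identical exonic counts. Alternatives were edgeR 4.0.16 and DESeq2 1.42.0 scaling, thinning, other lengths and leaving out cells. Python 3.11.15, pandas 2.3.3 and scipy 1.17.1 were used.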

Additional observations from a re-analysis of the deposited data

Results flagged for a closer look

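In the groups of 8 cells, 18 sets of member values were checked for a cell that stands apart, by the gap to its nearest neighbour over the whole range (critical value 0.526 for 8 cells). Chance flags about 1 in 20 such sets, and the check assumes values spread more evenly than these. It marked 7 values, each of them the highest of its group. Of the F cells, F6 stood apart for Camk2b at 523 CPM (next 37.2), F1 for Camk2d at 504 CPM (next 106), F2 for Camk2g at 201 CPM (next 70.1), F7 for Nrgn at 30.6 CPM (next 7.02) and F7 again for Ppp3r1 at 2473 CPM (next 730.5). Of the BRP-B cells, BRP567 stood apart for Camk4 at 126 CPM (next 32.3) and BRP569 for Nrgn at 0.694 CPM, where the other 7 cells had no count.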

How the results depend on the processing

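The median levels of the 9 members in 3 groups, 27 values, were compared with the spread of cells in the group (1 SD on the log2(CPM + 1) scale). None moved by more with edgeR's TMM factors or without the 10 genes with most counts, 6 did with DESeq2 size factors and 1 when cells were thinned. That spread was wide in F cells, where medians of single genes rose by up to 4.68 times with TMM factors and 6.43 times with DESeq2 size factors. Per kb of intron and of exon, 9 of the median intronic shares moved by more than the spread and 15 did not. Every BRP-A cell was above every F cell for 0 members with DESeq2 size factors, in place of 1 (Ppp3cb), beside 6.55% of all genes. The median Camk2g share of CaMKII in BRP-B was 54.2% with the longest transcript as length, 44.4% without division by length and 57.1% with exonic and intronic counts over the gene span. The median Camk2b share in BRP-A was 64.0% with exonic and intronic counts over the gene span, where Camk2a led in 1 of 12 cells. Ppp3cb joined Camk2a, Camk2b and Ppp3r1 as a gene without overlap between the BRP groups with TMM factors, with DESeq2 size factors and without the 10 top genes, where the share of all genes was 3.65%, 4.02% and 3.25%. Of 36 pairs of members, 2 changed the sign of rho with TMM factors and 7 in the 20 BRP cells alone, where the median rho was 0.416. Of the 27 most alike genes, 25 were the same among genes with a mean of at least 10 CPM. Leaving out BRP528 and BRP529 was chosen after seeing the data. Depth limits the F cells most: 3 counts are 3.58 CPM in F16. No paired analysis was possible because the columns carry no replicate numbers.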
